A study of Homo sapiens with 8 samples.

Results

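The hypoxia response and glycolysis genes described here are 41 of the 58735 genes in the deposited count table, matched by gene symbol, and all 41 had enough reads to be tested. They comprise 6 regulators of the hypoxia response, 17 genes of glycolysis, 4 genes of collagen modification and 14 other targets of the hypoxia-inducible factors. RNA-seq was measured in 4 libraries of miR-155OE cells and 4 libraries of CTRL cells. Both are EPC2-hTERT, a telomerase-immortalised esophageal epithelial line. The miR-155OE cells are 1 stable line made by lentiviral overexpression of miR-155-5p, and the labels do not say what construct, if any, the CTRL cells carry. Both groups were grown on inserts with pores of 0.4 µm for 2 days, kept in 1.8 mM calcium for another 5 days and then raised to the air-liquid interface, where such cells form layers. The title of the series describes miR-155 as a hypoxia-inducible microRNA, but no oxygen treatment is named in the labels of either group.

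Hypoxia-inducible factors (HIFs) are pairs of an alpha subunit, such as HIF1A or EPAS1, and the shared partner ARNT. When oxygen is plentiful, prolyl hydroxylases of the EGLN family modify the alpha subunit, and VHL then marks it for destruction. When oxygen is scarce the alpha subunit persists, and the pair binds short DNA elements near glycolytic, angiogenic and matrix-modifying genes. Much of this control acts on protein, which RNA counts do not measure. In the esophagus the layered epithelium has no vessels of its own, and HIF signalling has been studied there for its part in barrier function.

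The mature microRNA that was overexpressed is shown first, because its seed defines the sites searched in the 41 genes. The sequence is from RefSeq (GRCh38.p14, chr21:25573983-25574006, plus strand), and the capitals mark the seed, bases 2 to 8.
hsa-miR-155-5p: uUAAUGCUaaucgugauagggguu

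The DNA match to this seed, AGCATTA, was searched in the longest 3′ UTR of each gene in GENCODE release 29. It was present in 6 of the 41 genes (14.6%), against 1473 of the 12510 genes tested that have an annotated 3′ UTR (11.8%) and 2004 of all 19140 genes with one (10.5%). PDK1 held a pair of sites and the other genes held 1 each. The sites are printed as 30 bases read 5′ to 3′ on the strand of the gene, with the seed match in capitals. They are the exact matches that this search found. Shorter matches, other 3′ UTR forms and coding sequence were not searched. A match is a stretch of letters and not evidence of binding.
HIF1A (chr14:61748093-61748122, plus strand): agtaattttagaAGCATTAttttaggaata
EGLN1 (chr1:231364327-231364356, minus strand): ccacaactcaaaAGCATTAtcttttttagg
HK1 (chr10:69401591-69401620, plus strand): gagtgtgggcatAGCATTAgctgcttcctc
PDK1, first site (chr2:172598482-172598511, plus strand): aatttgtccaccAGCATTAatgtaacacag
PDK1, second site (chr2:172599176-172599205, plus strand): cttaatttaaccAGCATTAccctctgcttg
CA12 (chr15:63323478-63323507, minus strand): aggcgaggttaaAGCATTActatttgcaaa
INSIG2 (chr2:118109006-118109035, plus strand): gaagaggttatcAGCATTAaattgttttgg

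The 3 genes that changed in the fit on group alone, PLOD2, PGK1 and ANKRD37, had no AGCATTA in their longest 3′ UTR (1277, 3466 and 224 bases). None of the 6 genes with a site passed the test in either fit. Of all genes tested, 1.05% fell and 2.17% rose on group alone. With the replicate number as a block, 5.17% fell and 7.43% rose. At those shares few or none of 6 genes would pass, and the part of the sites was not tested.

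The promoters of PLOD2, PGK1 and ANKRD37 are printed because these genes fell and because HIFs bind a short core found there. Each is 300 bases from RefSeq (GRCh38.p14), 250 before and 50 after the annotated start, read on the strand of the gene. Capitals mark ACGTG or GCGTG, the core of the hypoxia response element, on either strand, so the reverse forms CACGT and CACGC are capitals too.
PLOD2 (chr3:146161135-146161434, minus strand): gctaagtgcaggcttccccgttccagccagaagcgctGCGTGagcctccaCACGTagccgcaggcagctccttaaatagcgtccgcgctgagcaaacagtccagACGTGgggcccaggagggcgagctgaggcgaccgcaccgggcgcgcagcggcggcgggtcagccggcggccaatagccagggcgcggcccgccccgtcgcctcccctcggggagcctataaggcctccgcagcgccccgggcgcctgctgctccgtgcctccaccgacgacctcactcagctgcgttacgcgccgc
PGK1 (chrX:78103998-78104297, plus strand): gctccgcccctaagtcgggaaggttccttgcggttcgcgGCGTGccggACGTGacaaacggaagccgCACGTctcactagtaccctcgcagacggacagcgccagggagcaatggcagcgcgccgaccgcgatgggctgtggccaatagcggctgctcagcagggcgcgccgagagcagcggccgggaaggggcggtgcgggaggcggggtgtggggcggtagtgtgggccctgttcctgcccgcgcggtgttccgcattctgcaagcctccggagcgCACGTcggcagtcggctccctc
ANKRD37 (chr4:185396591-185396890, plus strand): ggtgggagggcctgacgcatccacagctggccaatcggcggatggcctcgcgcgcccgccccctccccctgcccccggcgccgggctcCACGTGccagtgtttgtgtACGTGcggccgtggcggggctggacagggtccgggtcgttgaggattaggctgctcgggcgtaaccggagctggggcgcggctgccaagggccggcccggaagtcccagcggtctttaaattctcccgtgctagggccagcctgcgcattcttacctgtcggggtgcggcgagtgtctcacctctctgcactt

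The PLOD2 window held 3 cores, the PGK1 window 4 and the ANKRD37 window 3. In ANKRD37 a CACGTG counts as a core on each strand, so those cores overlap. Of the 37 genes with a promoter sequence, 33 (89.2%) held at least 1 core, against 7228 of 10438 genes tested (69.2%) and 14318 of all 27305 genes with a promoter sequence (52.4%). ACGTG alone was present in 62.2% of the 37 genes and 31.9% of the genes tested. A gene with several annotated starts has several windows, and among genes with 1 window the shares were 82.6% of 23 genes of this group and 63.8% of the genes tested. SLC2A3, VHL, HILPDA and VEGFA had no sequence to search. The 5 regulators with a sequence were lower than the genes tested, at 60% for either core and 20% for ACGTG alone. Since many of the 37 genes are known as HIF targets, partly through such elements, the shares are not a result of the libraries.

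The libraries held 33.4 to 40.6 M (mega) counts in miR-155OE and 34.1 to 52.7 M counts in CTRL. The labels do not say that the libraries are separate cultures, so the p-values reflect only how far these samples vary, and that variation may be technical. Libraries within a group differed by more than counting error (chi-square per degree of freedom 15.8 to 82.5), so none was treated as a duplicate. The microRNA host gene MIR155HG and the hairpin gene MIR155 had 0 reads in all 8 libraries, where 3 reads would be 0.0573 to 0.0901 CPM (counts per 1 M counts of the scaled library), and therefore gave no check of the labels. Keratins and adhesion genes of basal squamous cells, the markers of the labelled cell type, were abundant, and their summed levels ran from 17471 to 23454 CPM in miR-155OE and from 19205 to 24408 CPM in CTRL. The fibroblast genes COL1A2, COL3A1, DCN and LUM had 0 reads, although COL1A1 had 98.1 to 221 CPM in miR-155OE and 92.8 to 145 CPM in CTRL. Immune markers summed to 0.196 to 0.383 CPM in miR-155OE and 0.0592 to 0.289 CPM in CTRL, and the endothelial markers PECAM1, CDH5 and CLDN5 had at most 2 reads in a group. VWF, the other endothelial marker listed, had 1.29 to 2.35 CPM in miR-155OE and 1.49 to 2.19 CPM in CTRL.

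The question put to the libraries was which of the hypoxia and glycolysis genes differed in level between miR-155OE and CTRL. PLOD2, the lysyl hydroxylase that prepares collagen for stable crosslinks, PGK1, the first ATP-yielding enzyme of glycolysis, and ANKRD37, a small ankyrin-repeat HIF target, fell to 56.1%, 59.8% and 58.7% of their CTRL levels. These 3 of 41 genes were the ones past an adjusted p of 0.05 by edgeR's quasi-likelihood test on group alone, with adjustment over all 15135 genes tested. Across all genes tested, 1.05% fell and 2.17% rose by the same rule. On group alone with all 8 libraries, none of the 41 rose by edgeR or by DESeq2. At an unadjusted p by edgeR under 0.05, VHL and STC2 were higher, and EGLN1 was lower besides PLOD2, PGK1 and ANKRD37. The remaining 38 genes did not pass the test, HIF1A and the other HIF subunits among them. The median log2 fold change of the 41 genes was −0.05, against −0.01 over all genes tested, and 27 of 41 (65.9%) lay below 0, against 51.3% of all genes tested.

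Same-numbered libraries of the groups varied together for numbers 1, 2 and 4 (correlations of 0.578, 0.497 and 0.607). For number 3 the correlation was 0.184, below that of miR-155OE 3 with CTRL 4 (0.399), so that pair is less certain. A fit that took the replicate number as a block called 7 of the 41 genes. It called PLOD2, PGK1 and ANKRD37 lower again, P4HA1 and P4HA2 also lower, and EGLN3 and STC2 higher. The background was much higher in that fit, at 5.17% of all genes lower and 7.43% higher. The groups did not overlap, with all miR-155OE libraries below all CTRL libraries, for PLOD2, PGK1, ANKRD37, EGLN1 and INSIG2. That is 5 of 41 genes, against 5.25% of all genes tested, while no gene of the 41 lay above without overlap, against 6.16% of all genes tested. Within same-numbered pairs, 11 of the 41 genes (26.8%) were lower in 4 of 4 pairs, against 16.9% of all genes tested, and 4 (9.76%) were higher in 4 of 4, against 18.8%.

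**Figure D1:**
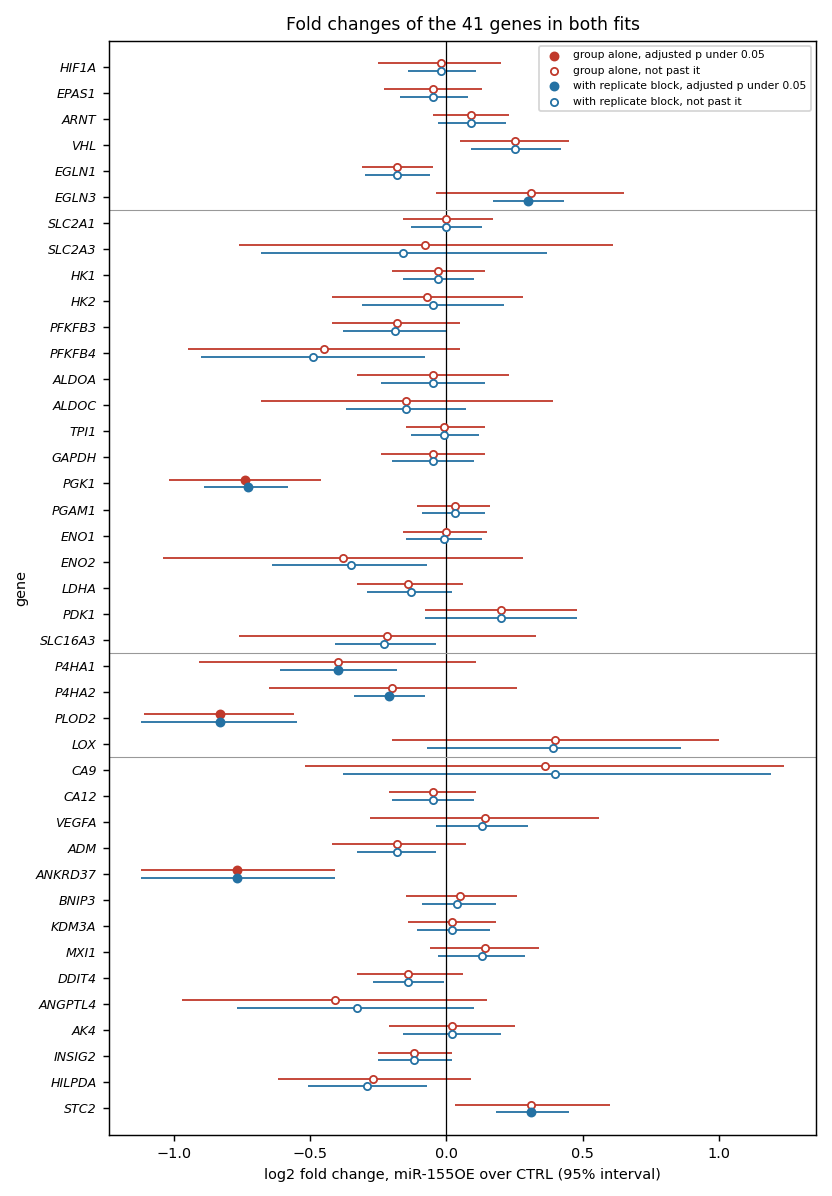
Log2 fold change of miR-155OE over CTRL (x axis) for each of the 41 genes (y axis, grouped by role), from the fit on group alone in red and from the fit with the replicate block in blue, with 95% intervals as bars and filled points at an adjusted p under 0.05. PLOD2, PGK1 and ANKRD37 are filled in both fits and lie between −0.83 and −0.73, while EGLN3, STC2, P4HA1 and P4HA2 are filled with the block alone.

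The regulators set how much HIF protein a cell keeps. HIF1A, the oxygen-regulated alpha subunit, had 361, 349, 408 and 407 CPM in miR-155OE libraries 1 to 4, against 354, 333, 425 and 436 CPM in CTRL libraries 1 to 4. In both groups libraries 3 and 4 were the higher ones, and the groups overlapped fully. The log2 fold change was −0.02 (standard error 0.10, 95% interval −0.25 to 0.20, adjusted p by edgeR = 0.935), so a difference in HIF1A RNA was not detected, and the interval bounds its size. EPAS1, the HIF-2 alpha subunit, averaged 273 ± 17.1 CPM in miR-155OE and 282 ± 26 CPM in CTRL, and ARNT, the partner of both, averaged 36.6 ± 1.74 CPM in miR-155OE and 34.4 ± 1.47 CPM in CTRL (SD, n = 4 each). Neither passed the test in either fit.

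EGLN1, the main oxygen-sensing prolyl hydroxylase, had 45, 45.6, 42.9 and 46.5 CPM in miR-155OE, against 49.4, 52.6, 49.7 and 52.2 CPM in CTRL. Every miR-155OE library lay below every CTRL library, yet the difference was small, with a log2 fold change of −0.18 (standard error 0.06), and it missed the threshold on group alone (adjusted p by edgeR = 0.12) and with the block (0.052). EGLN1 carries 1 of the seed matches printed above. The other genes with a match, HIF1A, HK1, PDK1, CA12 and INSIG2, had log2 fold changes of −0.02, −0.03, 0.20, −0.05 and −0.12. EGLN3, a hydroxylase that is itself a HIF target, had 79.0, 87.9, 94.8 and 127 CPM in miR-155OE, against 71.1, 70.8, 72.7 and 99.9 CPM in CTRL. Library 4 was the highest in both groups, so the groups overlapped, although EGLN3 was higher in 4 of 4 same-numbered pairs. It did not pass on group alone (log2 fold change 0.31, standard error 0.16, adjusted p by edgeR = 0.32) and rose with the replicate block (0.30, standard error 0.06, adjusted p = 0.00998).

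VHL, the substrate-binding part of the ligase that removes hydroxylated HIF, had 49.7, 41.6, 50.2 and 50.0 CPM in miR-155OE, against 41.8, 38.8, 35.6 and 44.8 CPM in CTRL. miR-155OE 2 stood apart from its group and fell within the CTRL range, while the other miR-155OE libraries lay above all CTRL libraries. The log2 fold change of 0.25 (standard error 0.09) did not pass on group alone (adjusted p by edgeR = 0.158) or with the block (0.0512). Of the 8 fits that left out 1 library, VHL passed in 1, without miR-155OE 2 (adjusted p by edgeR = 0.0455). In the others its adjusted p was up to 0.341. The fit without miR-155OE 2 also called 1274 genes over all genes tested, against 488 with all libraries. Of the 6 regulators, none changed on group alone by edgeR or DESeq2, and EGLN1 and VHL lay under an unadjusted p of 0.05. EGLN3 alone rose with the block, and the median log2 fold change was 0.03. Among all genes tested, 2.17% rose and 1.05% fell on group alone, and 7.43% rose and 5.17% fell with the block.

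**Figure D2:**
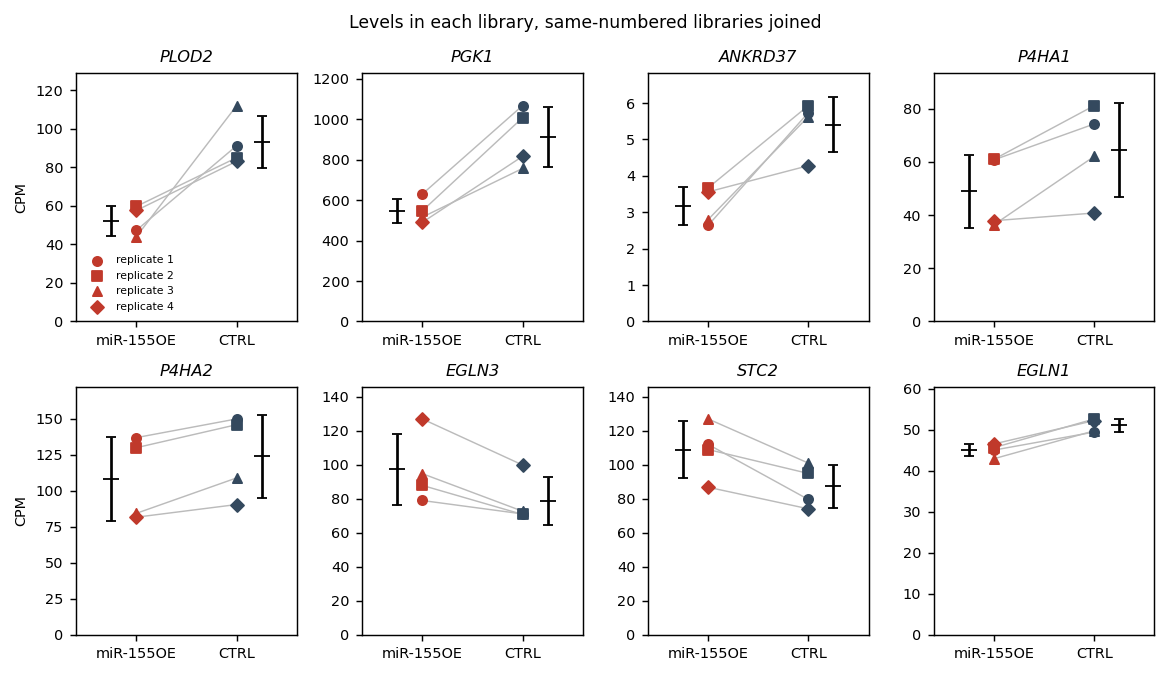
CPM (y axes, from 0) of 8 genes in each library, miR-155OE in red and CTRL in dark blue, with same-numbered libraries joined, a marker shape per replicate number, and the mean ± SD of each group as bars (n = 4 each). PLOD2, PGK1, ANKRD37 and EGLN1 show no overlap between groups, whereas P4HA1, P4HA2, EGLN3 and STC2 overlap but move the same way along all 4 joining lines.

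Glycolysis breaks glucose down to pyruvate and lactate. PGK1, 1 of its 17 genes here, fell on group alone, against 1.05% of all genes tested. PGK1 (ENSG00000102144; GRCh38, chrX:77910739-78129296, plus strand), phosphoglycerate kinase, had 630, 547, 516 and 490 CPM in miR-155OE, against 1068, 1008, 757 and 817 CPM in CTRL. All miR-155OE libraries lay below all CTRL libraries, and CTRL 1 and 2 were the highest of the 8. The mean was 546 ± 60.8 CPM in miR-155OE and 913 ± 149 CPM in CTRL (SD, n = 4 each). The log2 fold change was −0.74 (standard error 0.12, 95% interval −1.02 to −0.46, adjusted p by edgeR = 0.0145). The differences within same-numbered pairs were −0.76, −0.88, −0.55 and −0.74 on the log2 scale for numbers 1 to 4, and the block gave −0.73 (standard error 0.07, adjusted p = 0.000757). The call was kept without any 1 library except miR-155OE 3, where the adjusted p was 0.0545, and the log2 fold change over those 8 fits ran from −0.82 to −0.65. In the authors' deposited table PGK1, PLOD2 and ANKRD37 were also the 3 of the 41 genes called, all lower.

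PGK1 shares 97 of its 5512 annotated exon bases with ATP7A, a copper transporter gene on the same strand, and 95 with the pseudogene AL356235.1, which had 53 reads in all. ATP7A had a log2 fold change of 0.32 (adjusted p by edgeR = 0.193), so its own fitted difference was upward and did not pass, and reads shared with it cannot be told apart. PGK1 has processed copies in the genome, and how the authors' counting treated reads with several matches is not given in the sources used here.

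Neighbouring enzymes in the pathway gave a contrast. GAPDH, which makes the substrate of PGK1, had 1114, 1176, 1051 and 1063 CPM in miR-155OE, against 1204, 1193, 1182 and 992 CPM in CTRL. PGAM1, which acts on the product of PGK1, averaged 214 ± 6.28 CPM in miR-155OE and 210 ± 6.61 CPM in CTRL, and TPI1, the isomerase ahead of GAPDH, averaged 308 ± 11.3 CPM in miR-155OE and 310 ± 15 CPM in CTRL (SD, n = 4 each). The groups overlapped for all 3 genes, whose log2 fold changes lay between −0.05 and 0.03, and none passed the test. For every 100 reads of GAPDH there were 49.6 ± 4.85 reads of PGK1 in miR-155OE and 79.9 ± 10.9 in CTRL (SD, n = 4 each). For every 100 reads of the other 16 glycolysis genes there were 15.4, 12.4, 12.7 and 12.2 reads of PGK1 in miR-155OE, against 24.1, 23.1, 17.6 and 20.6 in CTRL, with no overlap. These ratios show unequal change within a library and do not depend on how the libraries were scaled.

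Summed over the 17 genes, glycolysis took 4689 ± 200 CPM in miR-155OE and 5184 ± 324 CPM in CTRL, and without PGK1 the sum was 4143 ± 178 CPM in miR-155OE and 4271 ± 209 CPM in CTRL (SD, n = 4 each). The sums over the other 16 genes overlapped between the groups, from 4014 to 4405 CPM in miR-155OE and from 3969 to 4439 CPM in CTRL. Of the 17 genes, 14 had a log2 fold change below 0, with a median of −0.07, and only PGK1 of them passed the test in either fit. For all genes tested, 51.3% lay below 0 and the median was −0.01, while 1.05% fell on group alone and 5.17% with the block. Since these are bulk libraries, fewer cells of a type and less RNA per cell cannot be told apart.

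Glucose enters through SLC2A1, the main glucose transporter of epithelia, which averaged 1147 ± 59.6 CPM in miR-155OE and 1144 ± 45.7 CPM in CTRL (SD, n = 4 each). Its log2 fold change was 0.00 (standard error 0.07), and the libraries of the groups interleaved. SLC2A3, a high-affinity transporter, was low, at 0.985 to 2.91 CPM in miR-155OE and 1.47 to 2.18 CPM in CTRL. The hexokinases HK1 and HK2, which trap glucose, had log2 fold changes of −0.03 and −0.07. LDHA, which makes lactate, averaged 680 ± 47.9 CPM in miR-155OE and 747 ± 69.2 CPM in CTRL (SD, n = 4 each). It was lower in 4 of 4 pairs without passing the test (log2 fold change −0.14, adjusted p by edgeR = 0.453). ENO1, the enolase of most cells, had a mean of 293 CPM in each group.

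PFKFB4, one of the bifunctional enzymes that set the level of the main allosteric activator of glycolysis, had 8.02, 8.42, 3.95 and 5.28 CPM in miR-155OE, against 9.47, 8.92, 9.72 and 6.84 CPM in CTRL. It was lowest in miR-155OE 3 and 4, and CTRL 4 lay within the miR-155OE range. The log2 fold change of −0.45 (standard error 0.23) did not pass on group alone (adjusted p by edgeR = 0.314) or with the block (0.111). PFKFB3, ALDOA, ALDOC, ENO2, PDK1 and SLC16A3 did not pass in either fit, at log2 fold changes from −0.38 (ENO2, the neuronal enolase) to 0.20 (PDK1, the kinase that restrains pyruvate dehydrogenase). ALDOC, ENO2 and SLC16A3, the lactate exporter, were higher in libraries 1 and 2 than in libraries 3 and 4 of both groups. In SLC16A3 these were 44.7, 49.7, 36.1 and 23.0 CPM in miR-155OE, against 57.0, 54.2, 35.5 and 31.7 CPM in CTRL. Mitochondrially encoded genes took a larger share of the counts in libraries 3 and 4 of each group, at 1.01, 1.31, 1.94 and 2.92% in miR-155OE and 1.23, 1.64, 2.78 and 2.50% in CTRL, and their part in the result was not tested.

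**Figure D3:**
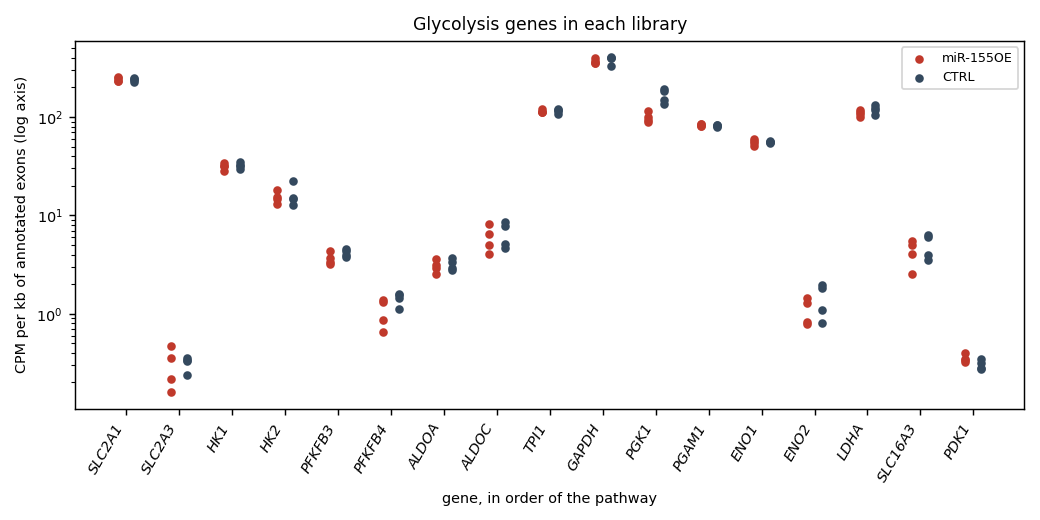
CPM per kb of annotated exons (y axis, log scale) of the 17 glycolysis genes in order of the pathway (x axis), 1 point per library, miR-155OE in red at the left of each gene and CTRL in dark blue at its right. PGK1 is the gene whose points part, averaging 99.1 CPM per kb in miR-155OE and 166 in CTRL, beside overlapping points for GAPDH, TPI1 and PGAM1.

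Per kb of annotated exons, DDIT4, an inhibitor of mTORC1 that HIFs induce, had the highest level of the 41 genes, at 379 CPM per kb in miR-155OE and 418 in CTRL. GAPDH came next, at 369 CPM per kb in miR-155OE and 383 in CTRL, followed by SLC2A1 at 243 CPM per kb in miR-155OE and 242 in CTRL. In miR-155OE PGK1, at 99.1 CPM per kb, lay below LDHA at 109 and TPI1 at 114. In CTRL PGK1, at 166 CPM per kb, lay above LDHA at 120 and TPI1 at 115. The lowest levels in CTRL were those of CA9, LOX, PDK1 and SLC2A3, at 0.270 to 0.316 CPM per kb. ALDOA had 3.06 CPM per kb in miR-155OE and 3.18 in CTRL from 3709 reads in all. AC093512.2, an overlapping protein-coding gene on the same strand, had 44 reads, and how reads shared between them were counted is not given in the sources used here, so the level of ALDOA is uncertain.

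**Figure D4:**
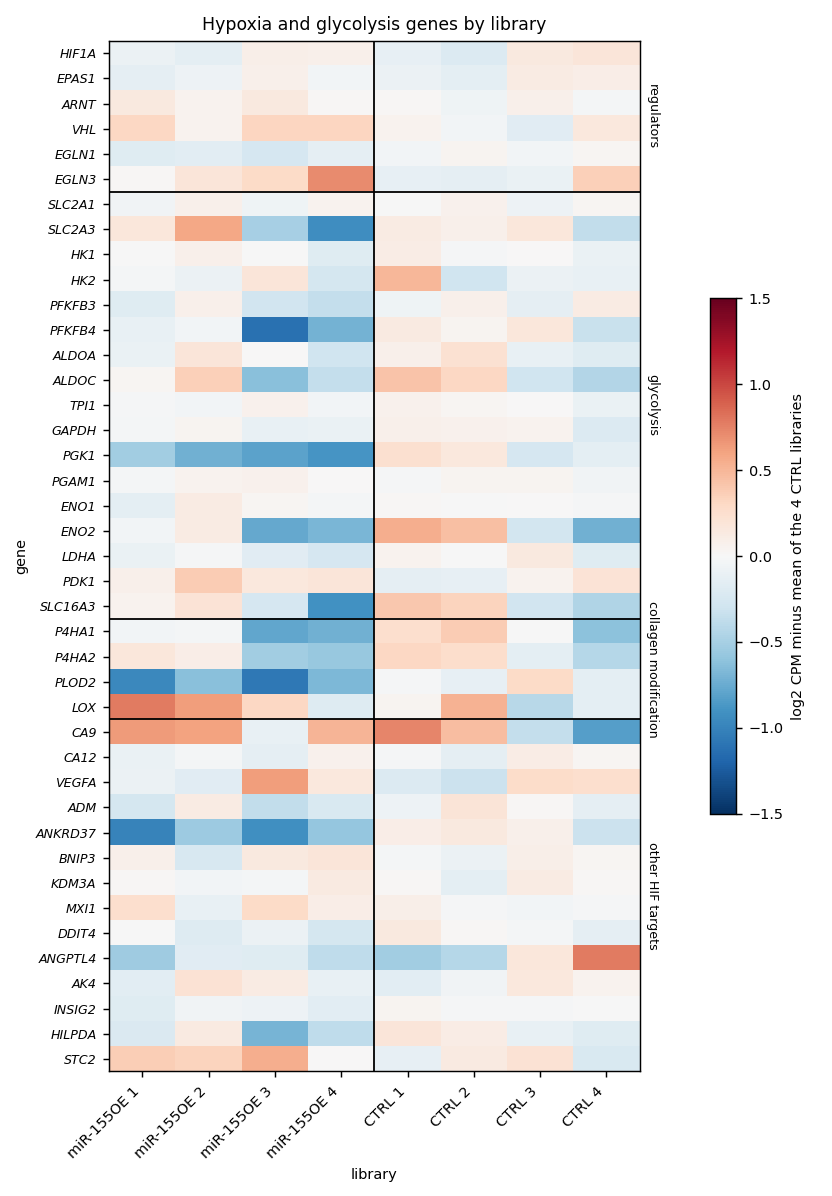
Log2 CPM of the 41 genes (rows, grouped by role) in the 8 libraries (columns, miR-155OE at the left of the line and CTRL at the right), as the difference from the mean of the 4 CTRL libraries, with blue lower and red higher. PLOD2, PGK1 and ANKRD37 are blue in all 4 miR-155OE columns, while P4HA1, P4HA2, ENO2 and SLC16A3 are lower in libraries 3 and 4 than in libraries 1 and 2 of the same group.

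The collagen modification genes act on procollagen in the endoplasmic reticulum or, for LOX, outside the cell. PLOD2 (ENSG00000152952; GRCh38, chr3:146069440-146163653, minus strand) had 47.3, 59.7, 44.0 and 57.6 CPM in miR-155OE, against 91.2, 85.0, 112 and 83.1 CPM in CTRL. The highest miR-155OE library lay well below the lowest CTRL library. The mean was 52.2 ± 7.71 CPM in miR-155OE and 93.0 ± 13.5 CPM in CTRL (SD, n = 4 each). The log2 fold change was −0.83 (standard error 0.12, 95% interval −1.11 to −0.56, adjusted p by edgeR = 0.00869). Pair differences were −0.95, −0.51, −1.35 and −0.53 on the log2 scale, and the block gave −0.83 (standard error 0.13, adjusted p = 0.00449). PLOD2 was the one gene of the 41 that passed in all 8 fits that left out 1 library, with an adjusted p of at most 0.0368. The overlapping antisense gene AC107021.1 had 0 reads and shares no exon base with it.

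P4HA1, a catalytic subunit of collagen prolyl 4-hydroxylase, had 60.8, 61.0, 36.4 and 37.9 CPM in miR-155OE, against 74.3, 81.2, 62.1 and 40.8 CPM in CTRL. Libraries 3 and 4 were low in miR-155OE and library 4 was low in CTRL, so the groups overlapped. It did not pass on group alone (log2 fold change −0.40, standard error 0.23, adjusted p by edgeR = 0.389) and fell with the block (−0.40, standard error 0.09, adjusted p = 0.026). P4HA2, the second catalytic subunit, had 137, 130, 84.4 and 81.7 CPM in miR-155OE, against 150, 146, 109 and 90.5 CPM in CTRL. It was likewise lowest in libraries 3 and 4 of each group, was lower in 4 of 4 pairs, and passed with the block (log2 fold change −0.21, standard error 0.06, adjusted p = 0.0481) but not on group alone (adjusted p = 0.665). LOX, the secreted enzyme that crosslinks collagen and elastin, had 1.37 to 2.73 CPM in miR-155OE and 1.16 to 2.29 CPM in CTRL and did not pass in either fit.

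Set beside each other, 1 of these 4 genes fell on group alone and 3 with the block. Over all genes tested, 1.05% fell on group alone and 5.17% with the block. P4HA2 lost its block call whichever pair was left out, and P4HA1 lost it without pair 1 or pair 2. The median log2 CPM of the 4 genes, relative to the CTRL mean, was 0.07, 0.03, −0.65 and −0.62 in miR-155OE and 0.15, 0.32, −0.08 and −0.29 in CTRL. Within each group libraries 3 and 4 were the lower ones, and each miR-155OE library was below its same-numbered CTRL library. The basal markers moved with these numbers, at 23454, 22637, 18342 and 17471 CPM in miR-155OE and 24344, 24408, 20205 and 19205 CPM in CTRL, and their part in the result was not tested.

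Among the other HIF targets, ANKRD37 (ENSG00000186352; GRCh38, chr4:185396021-185400628, plus strand) had 2.64, 3.67, 2.80 and 3.56 CPM in miR-155OE, against 5.74, 5.93, 5.63 and 4.28 CPM in CTRL. CTRL 4 came closest to the miR-155OE libraries, and the groups did not overlap. The mean was 3.17 ± 0.519 CPM in miR-155OE and 5.40 ± 0.754 CPM in CTRL (SD, n = 4 each), from 462 reads in miR-155OE and 860 in CTRL. The log2 fold change was −0.77 (standard error 0.16, 95% interval −1.12 to −0.41, adjusted p by edgeR = 0.0348), and with the block −0.77 (standard error 0.16, adjusted p = 0.0149). The call was lost without CTRL 1, 2 or 3 or miR-155OE 1 or 3 (adjusted p up to 0.103), and over all 8 fits that left out 1 library the log2 fold change ran from −0.86 to −0.69. ANKRD37 shares 909 of its 2580 exon bases with UFSP2 on the opposite strand, whose log2 fold change was −0.04 (adjusted p = 0.875). Whether the counting used strand is not given in the sources used here.

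STC2, a secreted glycoprotein hormone induced by hypoxia and by stress of the endoplasmic reticulum, had 112, 109, 127 and 86.8 CPM in miR-155OE, against 79.6, 94.9, 101 and 74.1 CPM in CTRL. Library 3 was the highest and library 4 the lowest in both groups, so the groups overlapped. STC2 did not pass on group alone (log2 fold change 0.31, standard error 0.13, adjusted p by edgeR = 0.207) and rose with the block (0.31, standard error 0.06, adjusted p = 0.0119), being higher in 4 of 4 pairs. INSIG2, which retains the sterol sensor in the endoplasmic reticulum, had 33.9, 37.0, 36.5 and 34.5 CPM in miR-155OE, against 39.7, 38.0, 38.0 and 38.2 CPM in CTRL. The groups did not overlap, but the log2 fold change of −0.12 did not pass in either fit (adjusted p = 0.32 on group alone).

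VEGFA, CA9, CA12, ADM and DDIT4 did not pass the test. VEGFA, the main angiogenic factor, had 285 to 495 CPM in miR-155OE and 256 to 388 CPM in CTRL, and was higher in libraries 3 and 4 of both groups. CA9, the tumour hypoxia marker, had 0.372 to 0.661 CPM in miR-155OE and 0.206 to 0.710 CPM in CTRL. The 95% interval of its log2 fold change ran from −0.52 to 1.24, so differences across that range are compatible with these values. CA12, a carbonic anhydrase at the cell surface, averaged 110 ± 6.56 CPM in miR-155OE and 114 ± 8.09 CPM in CTRL (SD, n = 4 each). ADM, a vasodilator peptide, and DDIT4 were lower in 4 of 4 pairs, at log2 fold changes of −0.18 and −0.14, and did not pass in either fit.

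ANGPTL4, a secreted inhibitor of lipoprotein lipase, had 10.5, 13.5, 13.4 and 11.7 CPM in miR-155OE, against 10.6, 11.3, 17.1 and 26.2 CPM in CTRL. Its log2 fold change of −0.41 (standard error 0.25) did not pass. CTRL 3 and 4 were the highest libraries, and the other CTRL libraries lay within the miR-155OE range. BNIP3, a mitophagy receptor, KDM3A, a histone demethylase, MXI1, an antagonist of MYC, AK4, a mitochondrial adenylate kinase, and HILPDA, a lipid-droplet protein, had log2 fold changes from −0.27 (HILPDA) to 0.14 (MXI1), with overlapping groups. In all, 1 of the 14 other targets fell on group alone, and with the block 1 fell and 1 rose. Over all genes tested, 1.05% fell on group alone, and with the block 5.17% fell and 7.43% rose. The median log2 fold change of the 14 other targets was −0.01.

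Further genes of the same pathways, 109 listed and 86 tested, are given here as counts. On group alone 2 rose and 2 fell, and with the block 10 rose and 7 fell. Over all genes tested, 2.17% rose and 1.05% fell on group alone, and 7.43% rose and 5.17% fell with the block. No gene changed on group alone among 13 further glycolysis genes tested, 14 further HIF regulators or 10 genes of pyruvate entry and its control, where 1, 2 and 2 genes lay under an unadjusted p of 0.05 and DESeq2 called 1 gene in each, lower in miR-155OE. With the block, TIGAR, which lowers the main activator of glycolysis, fell (log2 fold change −0.51, adjusted p = 0.0455), as did CITED2, which competes with HIF for its coactivator (−0.32, adjusted p = 0.0336). No pyruvate gene passed with the block.

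The largest change among these lists was in the pentose phosphate pathway. There 1 of 8 genes tested rose on group alone, against 2.17% of all genes tested. H6PD, which runs the first steps of that pathway inside the endoplasmic reticulum, had 13.7, 14.4, 12.3 and 12.6 CPM in miR-155OE, against 4.71, 5.36, 3.80 and 5.08 CPM in CTRL. The groups were far apart, at a log2 fold change of 1.49 (standard error 0.12, adjusted p by edgeR = 0.000483), and the call held without any 1 library. PGLS, the lactonase of the pathway, averaged 78.3 ± 2.53 CPM in miR-155OE and 65.8 ± 3.21 CPM in CTRL (SD, n = 4 each). It did not pass on group alone (adjusted p = 0.0505) and rose with the block (adjusted p = 0.0167).

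Of 30 further HIF targets tested, 2 fell on group alone, against 1.05% of all genes tested. One of them, ZNF395, a zinc finger protein, had 12.7, 22.2, 11.7 and 17.4 CPM in miR-155OE, against 28.3, 29.7, 27.9 and 25.5 CPM in CTRL, without overlap (log2 fold change −0.80, standard error 0.18, adjusted p by edgeR = 0.041). Leaving out 1 library at a time, it stayed past the threshold in 1 of 8 fits, the fit without miR-155OE 2. ZNF395 lies on the short arm of chromosome 8, where 121 genes had a median log2 fold change of −0.38 and 98.3% lay below 0. With the block 5 genes rose and 4 fell, against 7.43% and 5.17% of all genes tested. Those that rose were NDRG1 (log2 fold change 0.27 with the block, adjusted p = 0.0238), TMEM45A, a membrane protein (0.58, adjusted p = 0.00186), RORA, a nuclear receptor (0.52, adjusted p = 0.00812), KDM4C, a histone demethylase (0.24, adjusted p = 0.0361), and TFRC, the transferrin receptor (0.19, adjusted p = 0.0482). PPP1R3C, which directs a phosphatase to glycogen (−1.39, adjusted p = 0.0158), and CITED2 fell, as did ZNF395. NDRG1, a widely used marker of HIF activity, averaged 1846 ± 158 CPM in miR-155OE and 1526 ± 119 CPM in CTRL (SD, n = 4 each). It lies on the long arm of chromosome 8, where 231 genes had a median of 0.27, equal to its own log2 fold change. Other long-arm genes of the further lists, ELOC, CA2 and PDP1, had log2 fold changes of 0.24, −0.07 and 0.04. The part of chromosome 8 in these results was not tested.

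Of 13 further collagen modification genes tested, P3H4, a component of the lysyl hydroxylase complex, rose on group alone, against 2.17% of all genes tested. It had 16.4, 11.9, 15.4 and 11.9 CPM in miR-155OE, against 9.91, 9.73, 9.70 and 9.91 CPM in CTRL, without overlap (log2 fold change 0.50, adjusted p by edgeR = 0.0495), and the call held in 2 of the 8 fits that left out 1 library. With the block P3H3, a relative of the collagen prolyl 3-hydroxylases, rose too (log2 fold change 0.83, adjusted p = 0.00386), and CRTAP, a partner of those enzymes (−0.24, adjusted p = 0.0468), and LOXL2 fell. LOXL2, a lysyl oxidase relative, is on the short arm of chromosome 8 as well, and had a log2 fold change of −1.0 on group alone (adjusted p = 0.0624) and −1.04 with the block (adjusted p = 0.00818). PLOD2, P4HA1 and P4HA2 lie on chromosomes 3, 10 and 5.

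**Figure D5:**
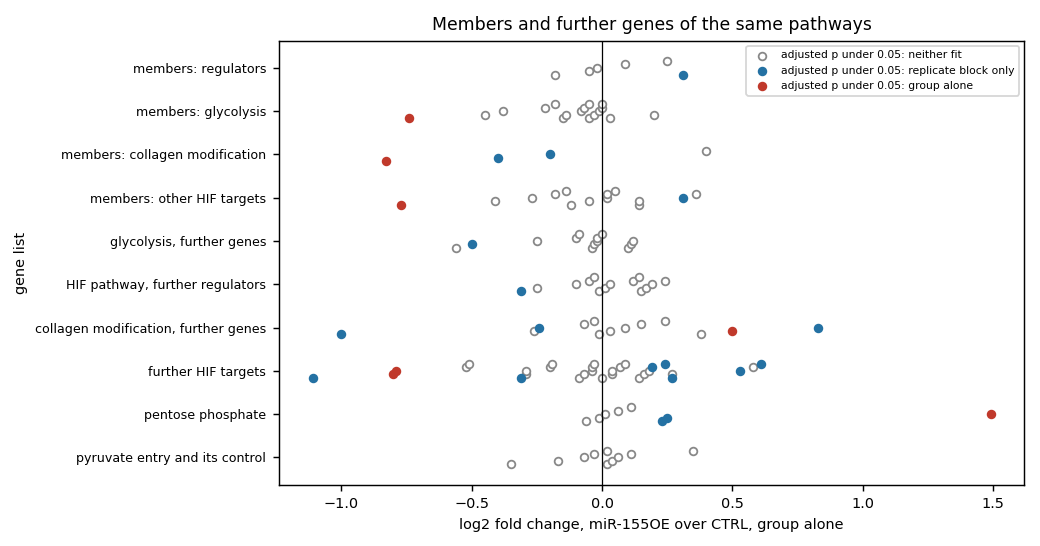
Log2 fold change of miR-155OE over CTRL on group alone (x axis) for the 41 genes, in 4 roles, and for the genes of 6 further lists (y axis), 1 point per gene, red where the adjusted p was under 0.05 on group alone, blue where it was so with the replicate block alone, and open where in neither. Most points lie near 0, PLOD2, PGK1 and ANKRD37 are the red points below −0.7 among the 41, and H6PD is the red point at 1.49.

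The groups also differed in markers of squamous differentiation, and these values stand beside every result above. Mucosal suprabasal markers, such as KRT4 and SPRR3, summed to 1497 to 2175 CPM in miR-155OE and 2538 to 3011 CPM in CTRL, without overlap. IVL, also among these 7, averaged 1157 CPM in miR-155OE and 1118 CPM in CTRL (log2 fold change 0.05). On group alone none of the 7 passed by edgeR or DESeq2, 4 lay under an unadjusted p of 0.05, and with the block 5 fell. Epidermal suprabasal markers, such as KRT1 and DSG1, summed to 6587 to 23215 CPM in miR-155OE and 3345 to 9091 CPM in CTRL, and 3 of 6 tested rose on group alone. KRT1 and KRT10 made up most of that sum, averaging 6336 and 7417 CPM in miR-155OE and 952 and 3628 CPM in CTRL. KRT10 did not pass on group alone (adjusted p by edgeR = 0.251), and FLG and LOR had log2 fold changes of −0.12 and −0.09. Among the basal markers none of 7 passed on group alone by edgeR or DESeq2, 0 lay under an unadjusted p of 0.05, and 1 fell with the block. Beside these marker counts, 2.17% of all genes tested rose and 1.05% fell on group alone, and 7.43% rose and 5.17% fell with the block. Proliferation markers summed to 42.4 to 48.9 CPM in miR-155OE and 40.7 to 49.7 CPM in CTRL. The part of these markers in the changes of PLOD2, PGK1 and ANKRD37 was not tested.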

How the data were processed

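RNA-seq counts of 4 miR-155OE and 4 CTRL libraries were used. Reads were aligned with HISAT2 2.0.5 and counted with featureCounts 1.5.0-p3 on GRCh38, per the submitters' processing notes, which state no strand setting or annotation release. Per the file headers, the counts deposited for each gene are raw and stand beside its name, position and length in bases. A second table by the authors holds a normalised signal per library, a log2 fold change and a p-value with its adjusted p-value, and DESeq2 is named in the submitters' notes. That table was used only for its calls.

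In R 4.3.3, edgeR 4.0.16 with filterByExpr kept 15135 genes, libraries were scaled by TMM, and groups were compared by the quasi-likelihood F test at an adjusted p (Benjamini-Hochberg over all genes tested) of 0.05. Standard errors were derived from the fold change and its F statistic and restate the test. CPM used the TMM-scaled sizes. Further tools were DESeq2 1.42.0 and limma 3.58.1 in R, and matplotlib 3.10.9, pandas 2.3.3 and numpy 2.4.6 under Python 3.11.15. The fitting procedure was tested on simulated data.

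Replicate numbers come from the sample titles, which do not say what they share. Over 10267 genes, deviations of same-numbered libraries from their group means correlated at 0.578, 0.497, 0.184 and 0.607 for numbers 1 to 4, so the block was fitted. For number 3 the own pair was not the best match: miR-155OE 3 correlated more with CTRL 4 (0.399). Genes are not independent replicates. Medians for chromosome 8, split at 45 Mb, were taken over genes whose log2 CPM averaged 2 or more, and were added after the values were seen.

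The 41 genes, the further lists and the tests were chosen with earlier results of these data known. Those of the 41 past the threshold in either fit, and the 2 of lowest p in each role, are given by library, and further-list genes past it are named, except for items not reported here. Other single genes were picked as examples. Alternatives were another scaling, other filters, DESeq2, the block, and leaving out each library or pair.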

Additional observations from a re-analysis of the deposited data

Results flagged for a closer look

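In 5 of 82 sets of 4 libraries, 1 library stood apart from its group by Dixon's test at the 95% level, which chance alone flags in about 1 of 20 sets. VHL had 41.6 CPM in miR-155OE 2, against 49.7 to 50.2 CPM in the other miR-155OE libraries. TPI1 had 325 CPM in miR-155OE 3, against 301 to 305 CPM in the others. EGLN3 had 99.9 CPM in CTRL 4, against 70.8 to 72.7 CPM in the other CTRL libraries. GAPDH had 992 CPM in CTRL 4, against 1182 to 1204 CPM, and INSIG2 had 39.7 CPM in CTRL 1, against 38.0 to 38.2 CPM. This number of sets is about what chance gives.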

How the results depend on the processing

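The count of 3 genes of the 41 was the same under RLE scaling, both filters and DESeq2. With the replicate block 7 were called, and leaving out 1 library gave 1 (without miR-155OE 3) to 4 (without miR-155OE 2). The 7 with the block became 3 (without number 1) to 7 when a pair was left out. P4HA2 lost its block call in all 4 of those fits, P4HA1 without pair 1 or 2, EGLN3 without pair 4 and STC2 without pair 1. Over all genes, 488 calls became 927 with no filter, 1223 by DESeq2, 1908 with the block, and 125 (without miR-155OE 1) to 1274 (without miR-155OE 2) when 1 library was left out. The 4 further pathway genes became 13 by DESeq2, 17 with the block, and 1 to 12 when 1 library was left out. The causes were not tested.

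Leaving out 1 library turned the sign of 12 genes near 0, none of them called in any fit. Their log2 fold changes ran from −0.09 to 0.04 (HIF1A), −0.02 to 0.03 (SLC2A1), −0.38 to 0.14 (SLC2A3), −0.07 to 0.02 (HK1), −0.17 to 0.12 (HK2), −0.13 to 0.03 (ALDOA), −0.34 to 0.01 (ALDOC), −0.04 to 0.02 (TPI1), −0.04 to 0.04 (ENO1, also 0.00 under RLE scaling and DESeq2), −0.05 to 0.24 (VEGFA), −0.03 to 0.06 (KDM3A) and −0.05 to 0.08 (AK4). PLOD2 kept its call in every setting tried, PGK1 in all but 1 (without miR-155OE 3) and ANKRD37 in all but those without CTRL 1, 2 or 3, miR-155OE 1 or 3, or, with the block, pair 1 (adjusted p by edgeR = 0.0892), each with the same sign. The block changed the calls of EGLN3, STC2, P4HA1 and P4HA2 among the 41 genes and of no other. CA9 had the fewest reads of the 41 genes, 82 in miR-155OE and 68 in CTRL, and its 95% interval of −0.52 to 1.24 bounds its difference only loosely.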
